A study of Mus musculus with 8 samples.

Results

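The genes described here build and acidify the lysosome: the cathepsins, which are its proteases, the subunits of the V-ATPase, the pump that moves protons into it, and the Lamp glycoproteins of its membrane. They were taken by symbol, with earlier results of these data known, as protein-coding mouse genes named Cts followed by 1 letter or digit, or Atp6v or Lamp followed by a digit. This gave 49 of 21887 coding genes, made up of 22 cathepsins, 23 pump symbols and 4 Lamp genes. Of 32773 regions in the deposited table, 118 were assigned to them, each region going to the coding gene body nearest to its centre within 100 kb. FOS regions were found at 32 of the 49 genes (65.3%), against 50.6% of all coding genes, and the highest-scoring ones lay at Ctss, Ctsb, Atp6v0a1 and Ctsd.

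The regions come from chromatin immunoprecipitation sequencing with an antibody against FOS, which pairs with JUN proteins to form the transcription factor AP-1. The mice were at postnatal day 30 and had IL-33, an interleukin-1 family cytokine, injected into a brain ventricle on 1 side. Cortical microglia, the resident macrophages of the brain, were sorted 4 h later. There were 4 FOS libraries and 4 input libraries, 1 of each kind per mouse. All of these mice had received IL-33, and no genotype, strain or sex is given in the labels. No library of vehicle-injected mice was analysed here, so that binding with and without IL-33 could not be compared.

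The table is 1 merged list on mm10 without values per library. No value below has a replicate error, no test between conditions was possible, and intervals cover counting error over this list. A region can hold peaks of the authors' merged FOS list, of a second list whose name reads as the IL-33 side of IL-33 against vehicle (here the IL-33 list, of an assay not named in the labels or header), or of both, which is called shared. The score is the authors' statistic, on a scale that neither labels nor header state, and ranks regions within this list only. In shared regions it was multiplied by the number of merged peaks and divided by the number of FOS peaks, because peaks of the IL-33 list enter the authors' average as 0. Each FOS peak also carries a final digit in its name, 1 to 4. It is called the number of calls here and taken to count the libraries with that peak, which is an inference. Whether the score averages only over the calls made is not stated, so scores from unlike numbers of calls may not be comparable.

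As a check of the cell type, 10 of 10 microglia marker genes had a FOS region (50.6% of all coding genes did), against 1 of 7 neuron markers, 2 of 4 each for astrocytes, oligodendrocytes and border macrophages, 4 of 4 endothelial markers and 1 of 5 neutrophil and monocyte markers. A region of 4 calls, which 17.5% of all coding genes had, was found at 9 of 10 microglia, 3 of 4 endothelial, 2 of 4 border macrophage, 1 of 4 astrocyte, 1 of 4 oligodendrocyte and 1 of 5 neutrophil and monocyte markers, and at no neuron marker. The part of other cells in the values below was not tested.

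Lysosomal proteases work at low pH and are made as inactive precursors. The V-ATPase has a membrane sector, V0, through which protons pass, and a cytosolic sector, V1, which hydrolyses ATP. Both sectors have subunits with isoforms used in different tissues. Many lysosomal genes carry the CLEAR element, an E-box around CACGTG that is bound by TFEB, TFE3 and MITF. For AP-1 the pattern TGANTCA was searched, where N is any base, without a preference at that position. In microglia and other phagocytes lysosomes degrade engulfed material, and cathepsin S trims the invariant chain for antigen presentation.

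Promoter windows, 250 bases before to 50 after each RefSeq start on GRCm38.p6, were in the sequence table for 39 of the 49 genes, in 44 windows. Of these windows, 12 (27.3%) overlapped a FOS region by at least 1 base, close to 27.4% of the windows of all coding genes. They belonged to 11 genes: Ctss, Ctsd, Ctsa, Ctsc, Ctsl, Atp6v0c, Atp6v1d, Atp6v1e1, Atp6v1a, Lamp1 and Lamp2. In 5 of the 12 windows, those of Ctsd, Ctsc, Atp6v0c and Lamp2, the region rested on 1 call. The windows of Ctss, which had the highest score among promoter regions of 2 or more calls, and of Ctsa and Lamp1, whose promoter regions had 4 calls, are printed on the strand of the gene, 5′ to 3′, with CACGTG, or TCACGTGA where the longer form is present, in capitals.
Ctss (chr3:95526536-95526835, + strand): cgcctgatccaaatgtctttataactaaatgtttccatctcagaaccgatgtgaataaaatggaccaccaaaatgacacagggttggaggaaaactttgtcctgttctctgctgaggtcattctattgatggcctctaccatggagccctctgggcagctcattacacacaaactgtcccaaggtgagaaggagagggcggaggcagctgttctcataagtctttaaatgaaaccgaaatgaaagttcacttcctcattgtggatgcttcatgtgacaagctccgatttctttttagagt
Ctsa (chr2:164833523-164833822, + strand): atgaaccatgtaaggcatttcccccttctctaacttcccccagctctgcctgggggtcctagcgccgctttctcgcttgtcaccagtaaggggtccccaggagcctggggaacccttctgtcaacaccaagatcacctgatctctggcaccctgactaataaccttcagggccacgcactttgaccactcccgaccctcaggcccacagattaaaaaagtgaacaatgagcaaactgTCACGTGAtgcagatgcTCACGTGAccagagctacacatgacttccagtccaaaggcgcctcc
Lamp1 (chr8:13158911-13159210, + strand): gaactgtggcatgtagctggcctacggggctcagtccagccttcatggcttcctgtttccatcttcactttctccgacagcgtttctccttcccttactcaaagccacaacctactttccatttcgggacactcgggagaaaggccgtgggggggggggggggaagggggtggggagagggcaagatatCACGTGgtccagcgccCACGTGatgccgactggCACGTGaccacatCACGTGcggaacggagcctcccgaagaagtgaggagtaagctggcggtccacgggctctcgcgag
The Ctss window held none of these motifs. The Ctsa window is that of a RefSeq start inside the gene body, not of the outermost start. The Ctsa window held TCACGTGA at -13 and again at 4, counted to the motif's first base with the start as 0, and the Lamp1 window held CACGTG at -61, -45, -28 and -15. The FOS region covered all of these copies.

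TGANTCA, TCACGTGA and CACGTG each read the same on both strands, and every window was searched in full. TGANTCA was found in 1 of the 44 windows (2.27%), against 6.99% of the windows of all coding genes, and in none of the 12 windows under a FOS region, against 4.76% of such windows in all. The match stood at -111 of Atp6v0a1, outside the nearest FOS region. TCACGTGA, the core of the CLEAR element, was found in 5 windows (11.4%), those of Ctsa, Ctsd, Atp6v0d1, Atp6v1a and Atp6v0e, against 1.23% of all windows. Of the 12 windows under a FOS region 3 held it, against 2.46% of such windows in all. The shorter CACGTG, which lies within TCACGTGA and was added after the sequences had been seen, was in 9 windows (20.5%), against 7.84% of all. Of those under a FOS region, 5 held it, against 11.7% in all. In 1 of these 5 windows, that of Ctsl, the copy at -236 lay outside the FOS region. All of these counts are matches of letters and show no bound factor. The TGANTCA match and the remaining longer E-boxes are shown with 10 bases on each side, since they are the sites on which these counts rest.
Atp6v0a1 at -111: cttatgtgggTGATTCAtattcttaag
Ctsd at -99: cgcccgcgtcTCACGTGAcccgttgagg
Atp6v1a at -132: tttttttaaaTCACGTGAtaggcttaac
Atp6v0d1 at -4: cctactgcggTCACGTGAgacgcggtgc
Atp6v0e at 2: agcgcgccgaTCACGTGAgcctctgttg
The sites of Ctsd and Atp6v1a lay within a FOS region, of 1 call at Ctsd and 2 calls at Atp6v1a. Those of Atp6v0d1 and Atp6v0e did not, although Atp6v0e had a FOS region of 1 call centred 332 bp after its start.

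The exact Clopper-Pearson 95% interval of the 65.3% of genes with at least 1 FOS region was 50.4 to 78.3. A FOS region of 4 calls was assigned to 16 of 49, against 17.5% of all coding genes, and a shared region to 5 of 49, against 4.34%. Counting IL-33 list regions with or without a FOS peak gave 6 of 49, against 5.64%. When every gene within 100 kb of a region was counted, in place of the nearest, 40 of the 49 (81.6%) had a FOS region, against 79.5% of all coding genes. These shares of all genes are not matched for activity in microglia, and no test was made of the difference. The genes with a FOS region had a median of 3 of them and a median highest score of 25.6, against 2 regions and 25.2 for all 11075 coding genes with one.

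**Figure D1:**
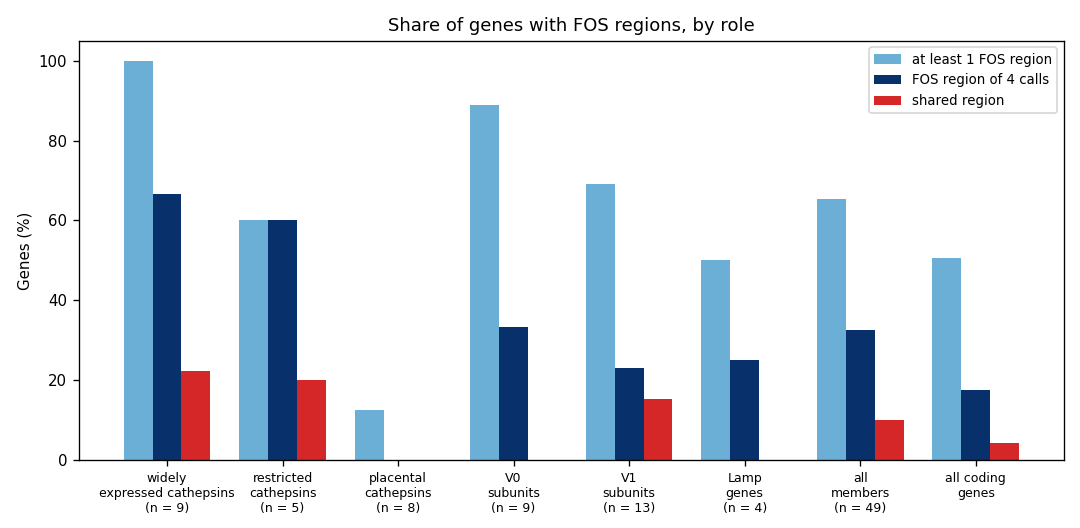
Share of genes (%, vertical axis) with at least 1 FOS region, with a FOS region of 4 calls and with a shared region, for each role, for all 49 lysosomal genes and for all coding genes. The 9 widely expressed cathepsins all had a FOS region, while 1 of the 8 placental cathepsins did; Atp6v1fnb is counted only among the 49.

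Roles were counted separately, with no test between them. Of all coding genes, 50.6% had a FOS region and 17.5% had a FOS region of 4 calls. All 9 widely expressed cathepsins had a FOS region, 6 of them with 4 calls. So did 3 of 5 cathepsins of restricted expression, all 3 with 4 calls, 8 of 9 V0 genes, 3 of them with 4 calls, 9 of 13 V1 genes, 3 with 4 calls, and 2 of 4 Lamp genes, 1 with 4 calls. In the placental cathepsins, a rodent cluster on chromosome 13, 1 of 8 had a region and none had 4 calls. Without these 8 the share was 31 of 41 (75.6%, interval 59.7 to 87.6). Median scores were 26.0 in 37 regions of the widely expressed cathepsins and 29.5 in 11 of the restricted ones. They were 18.0 in 27 regions of V0 genes, 19.7 in 30 of V1 genes and 12.4 in 11 of Lamp genes. In all 31473 FOS regions the median was 20.2. Some of these medians rest on few genes. Of the 11 restricted regions, Ctss had 6 with a median of 44.8, Ctse 4 with 14.1 and Ctsk 1 at 29.5. Of the 11 Lamp regions, 8 were those of Lamp2.

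**Figure D2:**
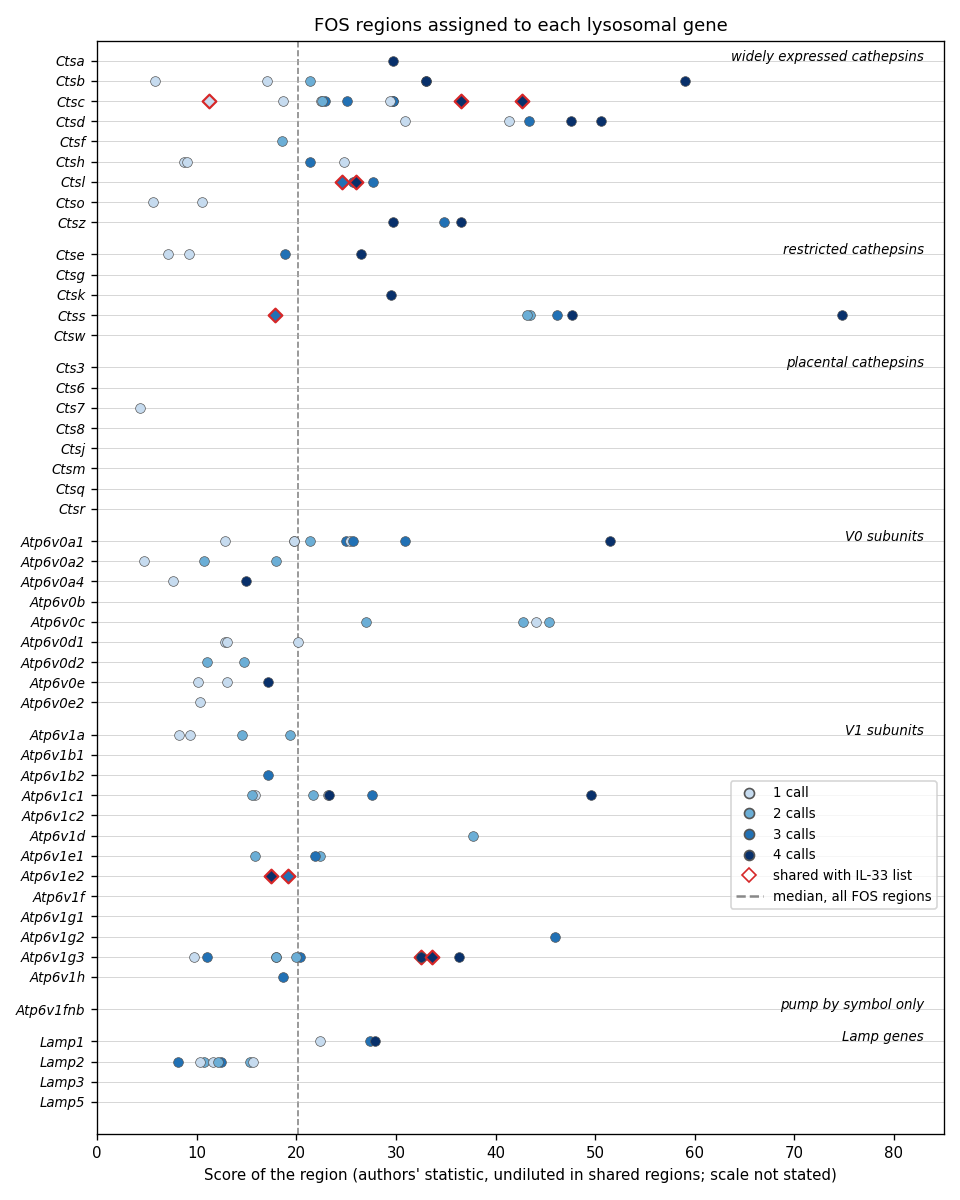
Score of every FOS region (horizontal axis) assigned to each of the 49 genes (rows, grouped by role), shaded by number of calls, with shared regions as red-edged diamonds. The highest point is Ctss at 74.8; the dashed line is the median of all FOS regions, 20.2.

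Ctss, the cathepsin S gene of microglia and other antigen-presenting cells, carried the highest score of the set. Its 6 FOS regions scored 43.5, 46.1, 74.8, 43.2, 47.7 and 17.8 in order along chromosome 3, and none rested on 1 call. The region at 95523755 to 95524077, 2870 bp before the start, scored 74.8 from 4 calls and was above 99.1% of all FOS regions. The region over the start scored 43.2 from 2 calls. The regions before the gene and over its start were all FOS-only, and the 1 shared region, inside the gene 14639 bp after the start, had the lowest score of the 6. Ctsk, its neighbour, which encodes the collagen-degrading protease of osteoclasts, had 1 region of 4 calls at 29.5, between both genes and 2581 bp outside its body.

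Ctsb, a cysteine protease abundant in microglia, had 6 FOS regions, scoring 5.78, 17.1, 33.0, 21.4, 59.0 and 33.0 along chromosome 14. The top region, at 63129010 to 63129375 inside the gene, rested on 4 calls and was above 97.3% of all FOS regions. The region at the low-coordinate boundary of the gene body, 61 bp from it, scored 21.4 from 2 calls, so the higher score stood deeper in the gene.

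Ctsd, the main aspartic protease of the lysosome, had 5 regions, all at or above 30.9. From its start outward they scored 30.9, 47.6, 43.4, 41.3 and 50.6, and all of their centres lay before the start. The 4-call regions were 2584.5 and 15913.5 bp before it, the farther one at 142403560 to 142403921 on chromosome 7. The region over the start itself rested on 1 call.

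Ctsc encodes dipeptidyl peptidase I, which activates granule serine proteases. With 11 regions it had the most of the set, and all 11 centres lay before its start, from 152 to 52173 bp away. The next coding gene on that side, Grm5, was 90849 bp or more from every one of them. Its 3 shared regions scored 11.2 from 1 call, 36.5 from 4 and 42.7 from 4, the last of them at 88271434 to 88271934 on chromosome 7, 6401 bp before the start. In this pair of higher ones the score exceeded that of each FOS-only region of the gene, which ranged up to 29.7. The FOS and IL-33 list peaks within the 3 regions were centred 23, 70 and 5 bp apart.

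Ctsl, a cysteine protease related to cathepsin S, had 4 regions with scores in a narrow range, 24.6 to 27.7. Both regions nearest the start were FOS-only with 3 calls, the closer one 32 bp before it. The others, 5366.5 and 27706 bp before the start, were shared and rested on 3 and 4 calls.

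Ctsz, a carboxypeptidase, had 3 regions within 2646.5 bp of its start, scoring 34.9, 36.5 and 29.7, the higher pair inside the gene and the lowest 610 bp before it. Ctsa, which encodes the protective protein of lysosomal beta-galactosidase, had 1 region, of 4 calls at 29.7. It lay over a RefSeq start inside the gene body, not over the outermost start. That region's centre was 14.5 bp from the body of the neighbouring gene Neurl2, so that this start of Ctsa and the boundary of Neurl2 cannot be told apart. Ctsh, an aminopeptidase, had 4 regions scoring 8.71 to 24.8, with 1 call in all but the 21.4 one. Ctsf had 1 region of 2 calls at 18.6, and Ctso had regions of 5.64 and 10.5 from 1 call each.

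Among the cathepsins of restricted expression, Ctse, an aspartic protease of endosomes, had 4 regions scoring 7.13 to 26.5, the highest from 4 calls and 4316 bp outside the gene. No FOS region was assigned to Ctsg, a neutrophil granule protease, or Ctsw, a cathepsin of cytotoxic lymphocytes. Nor was any assigned to Cts3, Cts6, Cts8, Ctsj, Ctsm, Ctsq or Ctsr. The exception among the placental genes, Cts7, had a single-call region of 4.34, at 87261 bp from the gene the farthest of the 118. Beyond the 100 kb limit lay 2 regions nearest to Ctso, at 149393 bp with a score of 15.0 and at 283112 bp with 8.45.

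**Figure D3:**
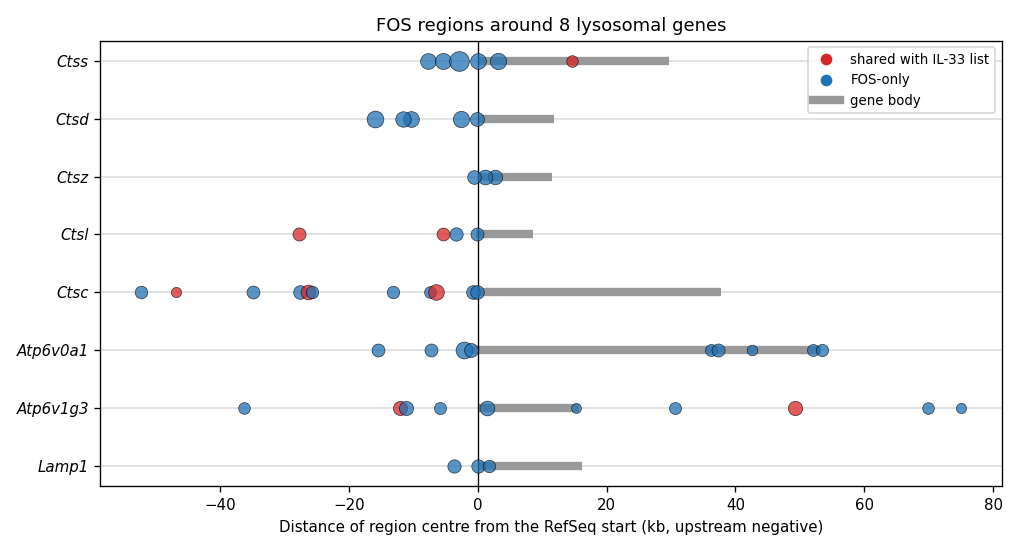
Centres of the regions of 8 genes by distance from the RefSeq start (kb, upstream negative), with point area growing with score, shared regions in red, FOS-only regions in blue and gene bodies in grey. Every region of Ctsd, Ctsc and Ctsl lies before the start, while Atp6v0a1 and Atp6v1g3 have regions on both sides.

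Of the pump's membrane sector, Atp6v0a1, an isoform of the large a subunit that is prominent in the brain, had 9 FOS regions. The highest scored 51.5 from 4 calls, at 101008086 to 101008479 on chromosome 11, 1139.5 bp outside the gene body. The other 8 scored 12.8 to 30.9, and 4 of the 9 rested on 1 call. Atp6v0c, the proteolipid that forms the rotating ring, had 4 regions scoring 27.0, 42.8, 44.1 and 45.4 along chromosome 17 within a territory of 8.75 kb, the span to which it is the nearest gene. None of the 4 had more than 2 calls, although the upper 3 were above 91.5%, 92.3% and 92.9% of all FOS regions of any number of calls.

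The highest scores of the remaining V0 genes were 20.2 or less. Atp6v0d1, a subunit of the central stalk, had 3 single-call regions at 12.8, 13.0 and 20.2. It also had the set's 1 region of the IL-33 list alone, at 105533928 to 105534428 on chromosome 8 inside the gene. The FOS region scoring 12.8, at 105533440 to 105533710, lay close beside it. Atp6v0d2, the isoform of osteoclasts and some macrophages, had 2 regions of 2 calls at 11.0 and 14.7. Atp6v0e had 3 regions up to 17.1, Atp6v0a2 3 up to 18.0, Atp6v0a4, an isoform of kidney, 2 up to 15.0, and Atp6v0e2 1 at 10.3. Atp6v0b, another proteolipid, had none.

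Of the V1 sector, Atp6v1c1, the regulatory C subunit, had 7 regions scoring 49.6, 27.6, 23.2, 23.3, 21.7, 15.8 and 15.5 along chromosome 15. The highest, from 4 calls at 38602156 to 38602537, lay 59557.5 bp outside the gene, with Azin1 as the next coding gene at 83052.5 bp. The region at the low-coordinate boundary of the gene body scored 21.7 from 2 calls. Atp6v1g2, an isoform of neurons, had 1 region at 45.9 from 3 calls, which also lay inside the overlapping gene Nfkbil1 and was given to both. Atp6v1d had 1 region at 37.8 from 2 calls over its start, 381 bp from the neighbouring gene Eif2s1.

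Atp6v1g3, a G subunit isoform of kidney, had 10 regions, of which 4 rested on 4 calls and 2 were shared. The 4-call regions scored 32.5 (shared), 32.5, 36.4 and 33.7 (shared), and the others 9.70 to 20.3. The 36.4 region lay in the gene at 138274944 to 138275288 on chromosome 1, 1378 bp after the start. The next coding gene was Ptprc, the leukocyte antigen CD45, for 8 of the regions, at 61732 to 147282 bp, and Nek7 for the rest. Assignment by distance does not show which gene a region acts on. Atp6v1e2, an E subunit isoform of testis, had 2 regions, both shared, 6849 and 6189 bp outside the gene, with scores of 17.4 from 4 calls and 19.2 from 3.

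The catalytic A subunit gene, Atp6v1a, had 4 regions of 8.24 to 19.4, the highest centred 164 bp before its start and 368 bp from the neighbouring gene Naa50. Atp6v1e1 had 3, of 15.8 to 22.4, and Atp6v1b2 and Atp6v1h had 1 each, at 17.2 and 18.7, both from 3 calls. None was assigned to Atp6v1b1, Atp6v1c2, Atp6v1f or Atp6v1g1, nor to Atp6v1fnb, which carries the symbol as a neighbour of Atp6v1f.

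Lamp1 and Lamp2 encode the most abundant proteins of the lysosomal membrane. Lamp1 had 3 regions scoring 27.4, 27.9 and 22.4 from 3613 bp before to 1704 bp after its start, and the middle one, 37 bp after the start, rested on 4 calls. Lamp2, on the X chromosome, had 8 regions, all between 8.11 and 15.6 and none of 4 calls, so that its range lay wholly under that of Lamp1. Lamp3, a marker of mature dendritic cells, and Lamp5, a neuronal gene, had none.

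The 117 FOS regions were set beside all FOS regions by position and number of calls. Of the 117, 25 (21.4%, interval 14.3 to 29.9) were within 1 kb of an end of a coding gene body, against 22.0% of all FOS regions. Inside a gene body were 55 (47.0%, 37.7 to 56.5), against 58.9%. Regions of the same gene are not independent, which these intervals do not allow for, and no test was made. Regions of 4 calls made up 26 of 117 (22.2%, 15.1 to 30.8), against 22.9%, and those of 1 call 38 of 117, against 39.8%. The median score was 21.4, against 20.2 in all. Shared regions were 10 of 117 (8.55%, 4.17 to 15.2), against 4.92%, and came from 5 genes, 3 of them in Ctsc.

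**Figure D4:**
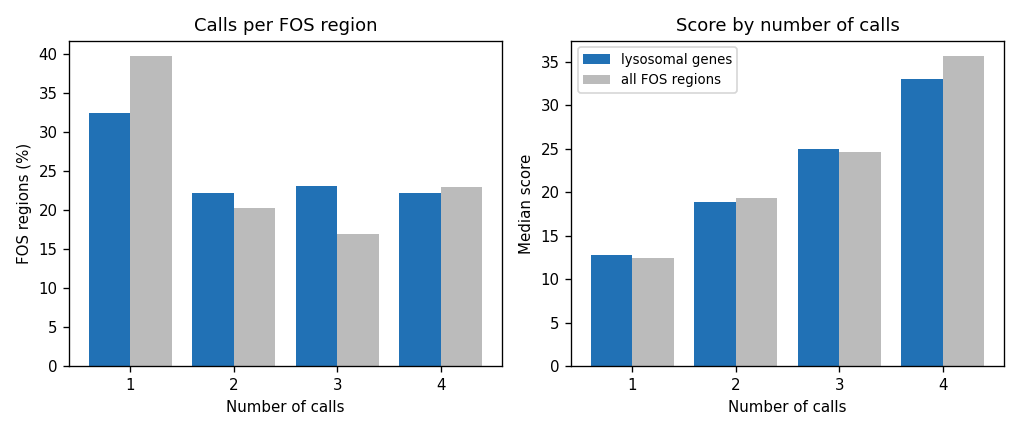
Left, share of FOS regions (%) by number of calls in the lysosomal genes (blue) and in all FOS regions (grey); right, median score by number of calls. The median rises from 12.8 at 1 call to 33.0 at 4 calls in the lysosomal genes and from 12.4 to 35.7 in all.

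Score went with calls in the set, with medians of 12.8 at 1 call, 19.0 at 2, 25.0 at 3 and 33.0 at 4. All 10 shared regions lay more than 1 kb from any coding gene end, against 97.2% of all shared regions. So did 23 of the 26 regions of 4 calls, against 83.4% of such regions in the whole table. The 25 regions near a gene end had a median score of 24.8 and the 92 farther ones 19.9, against 24.1 and 18.7 in all FOS regions. A FOS region centre stood within 1 kb of the RefSeq start in 14 of the 39 genes whose start was in the table (35.9%, 21.2 to 52.8), against 34.3% of coding genes. By role these were 5 of 7 widely expressed cathepsins, 1 of 3 restricted ones, 2 of 7 V0 genes, 4 of 9 V1 genes and 2 of 4 Lamp genes. Of the placental ones they were 0 of 8, with an upper limit of 36.9%. The placental genes lie in 1 cluster and may not be independent, which intervals over genes do not allow for.

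Relative to the span of genome nearest to them, the 49 genes had 4.02 FOS regions per 100 kb, against 1.55 in all sequence within 100 kb of a coding gene. The value was 6.93 for widely expressed cathepsins, 7.83 for restricted ones, 5.62 for V0 genes, 3.59 for V1 genes, 3.87 for Lamp genes and 0.159 for placental cathepsins. Single genes reached 45.7 at Atp6v0c, 17.3 at Ctsz, 15.0 at Ctss and 13.7 at Ctsd. Short spans between close genes hold more gene ends per length, and the spans were not matched for that.

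The other genes of the lysosome on a list of 90 showed FOS regions at 75 (83.3%), against 50.6% of all coding genes. Regions of 4 calls stood at 35 of the 90, against 17.5% of all coding genes. By role the counts were 28 of 34 hydrolases and activators, 19 of 23 membrane and transport genes and 19 of 21 regulators. They were 4 of 5 for further genes grouped with the pump and 5 of 7 for protease inhibitors. These last groups are loose, since they include Tm9sf1 and Spint1, and both of these had a FOS region. High scores stood at Lgmn, which encodes the protease legumain that processes cathepsins (92.8), Tpcn2, a lysosomal cation channel (84.4, at 70003 bp from the gene), Cd68, a phagocyte glycoprotein (71.7), and Grn, the gene of progranulin (70.1). Each of these rested on 4 calls, and all 4 scored above every cathepsin other than Ctss (74.8). Tfeb, the regulator of the CLEAR network, had 8 FOS regions with a highest score of 62.1. Shared regions were found at 6 of the 90, against 4.34% of all coding genes. These genes were Arsb with 4, Laptm5 and Igf2r with 2 each, and Slc11a1, Scarb2 and Rptor with 1 each. Lgmn had 4 regions of the IL-33 list alone and none shared.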

How the data were processed

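FOS immunoprecipitation and input libraries were made from sorted cortical microglia of 4 IL-33-injected mice. The aligner Bowtie2, HOMER and the builds mm10 and GRCm38 are named, with no versions, per the submitters' processing notes. Per the file headers, the authors joined their merged FOS peaks and the IL-33 list with HOMER mergePeaks. The score was deposited by the authors as their merge's average over joined peaks, per the file headers, and the deposited number of merged peaks is another column. The table gives no depth or value per library, so depth is unknown, and nothing states the peak calling settings or how inputs were used. The inputs entered no comparison.

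Regions were assigned with Python 3.11.15, pandas 2.3.3 and numpy 2.4.6 to 21887 RefSeq GRCm38.p6 coding genes on 21 chromosomes, ties going to every overlapping gene, and 3 regions elsewhere were left out. In a check of the code, 2000 regions were planted inside gene bodies and 2000 returned to their gene. The assignment rule itself sets that outcome, and assignment of regions outside gene bodies was not checked. Scipy 1.17.1 gave exact 95% intervals. Starts and promoter sequences were from RefSeq, GRCm38.p6, and territories were measured in steps of 50 bp. Gene symbols matched for 90 of 90 other lysosome genes. The values of 1 of these genes are not reported here. Named genes were those with an IL-33 list peak, the 12 highest scores and 8 microglial cathepsins, with the others given by count and range. The members and lists were chosen with earlier results of these data known. No test between groups was possible. Alternatives for distance, calls, score, assignment and members were computed.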

Additional observations from a re-analysis of the deposited data

How the results depend on the processing

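No paired analysis was possible because the table holds no values per library, and for the same reason no mouse could be left out. The 32 genes with a FOS region became 16 with regions of 4 calls only (17.5% of all coding genes) and 19 with scores of at least the median of all FOS regions (32.9% of all). Counting every gene within 100 kb of a region gave 40 (81.6%), against 79.5% of all coding genes. The 16 genes with a 4-call region became 8 within 1 kb of the gene and 29 when every gene within 100 kb of a region was counted. Under these 2 settings the 117 FOS regions became 64 and 312, the 5 genes with a shared region 1 and 10, and the 6 with an IL-33 list region 2 and 13. For the 4-call, shared and IL-33 list counts, the matching shares of all coding genes under these settings were not computed. The 117 became 26 with 4 calls only and 63 with scores of at least the median, and the 5 became 3 with such scores. The median score of 21.4 became 25.7 with 2 or more calls, 33.0 with 4 calls and 29.7 with scores of at least the median, each by construction. The 21.4% near a gene end became 39.1% within 1 kb of the gene and 11.5% with 4 calls only. The 75 other lysosome genes became 35 with 4 calls only (17.5% of all coding genes). Counts of the other settings were within 1.5 times the reported ones. Of the 22 cathepsins 13 (59.1%) and of the 23 pump symbols 17 (73.9%) had a FOS region, against 50.6% of all coding genes. With 4 calls only these were 9 and 6, against 17.5% of all coding genes. Without values per library, the spread between mice is unknown for every value.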
